A study of Homo sapiens with 8 samples.

Results

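The kinesin genes are described here in peak lists from mitotic human cells that had been held in mitosis by an inhibitor of one kinesin, KIF11. Members were all protein-coding genes on chromosomes 1 to 22 of the RefSeq gene table whose symbol is KIF, digits and an optional letter, which gave 38 of 19122 genes. They fell into 5 mitotic kinesins (KIF11, KIF23, KIF20A, KIF2C and KIF18A), 8 further kinesins with mitotic roles, 13 transport kinesins and 12 others, mostly with roles in cilia or signalling. Kinesins outside the symbol rule, such as CENPE and KIFC1, were kept as a separate list of partner genes.

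Kinesins are motor proteins that bind microtubules and use ATP to walk along them or to take their ends apart. One branch builds the mitotic spindle, aligns chromosomes and completes cytokinesis, while another carries vesicles, organelles and other cargo through cells that are not dividing. Many genes of the mitotic branch are switched on in G2 and mitosis through the cell cycle genes homology region (CHR) and CCAAT boxes close to their starts.

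Open chromatin had been profiled with ATAC-seq, where Tn5 transposase cuts and tags accessible DNA. All 8 libraries came from hTERT RPE-1 cells, a telomerase-immortalised retinal pigment epithelial line, with the genotype Plk1-/- EGFP-Plk1as. These cells lack the endogenous mitotic kinase Plk1 and carry an EGFP-tagged, analog-sensitive form, which the ATP analog 3MB-PP1 inhibits. Cells of both groups were arrested in prometaphase with 5 µM STLC for 16 h and shaken off. They were then kept in STLC for 2 h with 0.5% DMSO (4 libraries) or with 10 µM 3MB-PP1 (4 libraries), and more than 95% of cells were mitotic. STLC, the inhibitor of KIF11, was thus present in controls too, and no library without it was compared. The labels do not say whether replicates came from separate cultures, so p-values measure the spread between these libraries, which may be technical. Whether the edited line is a single clone is not given in the sources used here.

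Each library was represented by a list of peaks, with no read counts, so depth per library is unknown and no count test was possible. Lists held 149172 to 197782 peaks on chromosomes 1 to 22 in DMSO and 169667 to 250548 in 3MB-PP1. Peaks were narrower with 3MB-PP1, with a median width of 291.25 ± 24.9 bp against 390 ± 25.0 bp (SD, n = 4 each). Odd-numbered replicates of both groups had the larger share of peaks on chromosome X, so treatment differences are also given within odd and within even numbers. A gene-end peak was present in 8 lists at KRT8, KRT18, CDH2, OTX2 and MITF and in 1 list at KRT7. Of the markers of other cell types, PTPRC and ALB had none, NEUROD1 had 1 list and CD3E had 8. An ATAC peak shows an accessible site and not expression.

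The promoters of the 5 mitotic kinesins and of 2 comparison genes are shown because the accessible site lay over them. Each line gives the 250 bases before the RefSeq start (GRCh38.p14), 5′ to 3′ on the strand of the gene. Capitals mark TTTGAA (the core of the CHR) and CCAAT (the NF-Y box), read on either strand, so that TTCAAA and ATTGG are the same motifs on the other strand.
KIF11, chr10:92592880-92593129, plus strand: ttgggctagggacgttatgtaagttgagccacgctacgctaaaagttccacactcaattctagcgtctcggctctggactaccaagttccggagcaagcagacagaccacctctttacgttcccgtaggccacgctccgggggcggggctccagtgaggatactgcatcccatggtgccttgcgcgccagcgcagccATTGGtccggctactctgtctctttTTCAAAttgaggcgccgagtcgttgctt
KIF23, chr15:69414099-69414348, plus strand: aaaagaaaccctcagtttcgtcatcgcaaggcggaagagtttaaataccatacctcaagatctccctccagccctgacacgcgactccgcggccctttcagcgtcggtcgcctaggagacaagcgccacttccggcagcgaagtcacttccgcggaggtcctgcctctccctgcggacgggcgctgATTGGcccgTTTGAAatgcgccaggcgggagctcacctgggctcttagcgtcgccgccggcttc
KIF20A, chr5:138178862-138179111, plus strand: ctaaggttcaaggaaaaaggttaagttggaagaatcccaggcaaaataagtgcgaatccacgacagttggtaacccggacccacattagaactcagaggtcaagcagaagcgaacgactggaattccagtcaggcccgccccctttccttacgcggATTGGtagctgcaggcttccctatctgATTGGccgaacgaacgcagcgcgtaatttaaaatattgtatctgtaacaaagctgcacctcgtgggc
KIF2C, chr1:44739587-44739836, plus strand: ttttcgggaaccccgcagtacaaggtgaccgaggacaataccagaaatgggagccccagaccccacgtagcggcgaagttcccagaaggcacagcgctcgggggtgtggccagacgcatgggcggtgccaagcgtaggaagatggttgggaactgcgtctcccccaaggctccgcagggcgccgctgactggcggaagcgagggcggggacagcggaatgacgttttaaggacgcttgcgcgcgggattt
KIF18A, chr11:28108157-28108406, minus strand: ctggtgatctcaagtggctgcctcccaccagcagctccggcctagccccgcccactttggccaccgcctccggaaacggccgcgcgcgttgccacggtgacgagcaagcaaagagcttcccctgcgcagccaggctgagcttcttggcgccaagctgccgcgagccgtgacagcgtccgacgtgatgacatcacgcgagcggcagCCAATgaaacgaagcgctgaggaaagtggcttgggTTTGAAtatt
KIF20B, chr10:89701340-89701589, plus strand: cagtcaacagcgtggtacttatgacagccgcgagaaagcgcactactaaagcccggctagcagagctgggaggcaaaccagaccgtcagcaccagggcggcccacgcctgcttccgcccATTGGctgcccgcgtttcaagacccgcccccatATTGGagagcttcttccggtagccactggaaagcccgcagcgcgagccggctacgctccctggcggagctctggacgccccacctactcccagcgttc
KIF5B, chr10:32056426-32056675, minus strand: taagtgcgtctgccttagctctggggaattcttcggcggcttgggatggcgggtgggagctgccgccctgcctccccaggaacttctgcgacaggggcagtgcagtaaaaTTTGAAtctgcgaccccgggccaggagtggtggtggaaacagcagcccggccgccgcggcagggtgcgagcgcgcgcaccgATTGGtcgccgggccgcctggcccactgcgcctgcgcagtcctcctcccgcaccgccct

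In KIF11 the CHR letters lay 28 to 23 bases before the start and the CCAAT box 53 to 49 bases before it. KIF23 and KIF18A also held both motifs in this order, KIF20A held 2 CCAAT boxes and no TTTGAA, and KIF2C held neither. KIF20B, which acts late in cytokinesis, had 2 CCAAT boxes before its start and TTTGAA only after it. KIF5B, the ubiquitous heavy chain of the cargo motor kinesin-1, was the only transport kinesin with TTTGAA.

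The same windows were searched over 300 bases (250 before to 50 after the start) for every gene in the RefSeq promoter table, which held 32 of the 38 kinesins. TTTGAA was found in 3 of 5 mitotic, 5 of 8 further mitotic, 1 of 11 transport and 0 of 8 other kinesin genes, and in 15.8% of all 15100 genes in the table. The further mitotic carriers were KIF14, KIF15, KIF18B, KIF20B and KIF4B. CCAAT was found in 4 of 5, 5 of 8, 4 of 11 and 3 of 8, against 41.8% of all genes in the table. The E2F letters GGCGGGAA, with TTCCCGCC on the other strand, were in none of the 41 kinesin promoters and in 3.95% of all 21155 promoters. A match says only that the letters are present in this window, and other spellings of these motifs were not searched. Promoter GC content had a median of 61.3% in mitotic (51.3% to 62%) and 69.7% in transport kinesins (60.8% to 87%).

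Gene ends were scored in each list as the window 1 kb either side of either end of a gene. A gene-end peak was present in all 8 lists at 27 of 38 kinesin genes (71.1%), against 61% of all protein-coding genes. KIF26A, a kinesin-like protein without motor activity, had none in any list, against 8% of all genes with none. The number of kinesin genes with a peak was 32 ± 1.41 in DMSO and 32.75 ± 0.957 in 3MB-PP1 (SD, n = 4 each), and the groups overlapped. No kinesin gene had a peak in 4 of 4 lists of one treatment and 0 of 4 of the other, a pattern met by 0.126% of all genes for 3MB-PP1 and 0.0575% for DMSO.

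The remaining 10 kinesin genes had a peak in some lists only. KIF2C, the spindle microtubule depolymerase, had a peak in 7 lists and lacked one in 3MB-PP1 replicate 4. KIF25 had 6 lists and the Hedgehog regulator KIF7 had 5. The neuronal heavy chain KIF5A, the depolymerase KIF2B, the KIF4A copy KIF4B, the centriolar KIF24 and KIF12 had 4 each, and the ciliary KIF19 had 2. KIF21B, a regulator of microtubule growth, had a peak in 3 DMSO lists and in none of the 4 3MB-PP1 lists. Its 3 peaks were weak, with −log10 q from 1.23 to 1.58, close to the limit of the lists.

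Peak height was compared as a percentile. In each list every gene took the pileup (the authors' peak height) of its highest gene-end peak, and the percentile is the percent of the 19122 genes with a lower value, with 0 for no peak. This ranks the same genes in every list, and it is blind to a change shared by all genes.

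**Figure D1:**
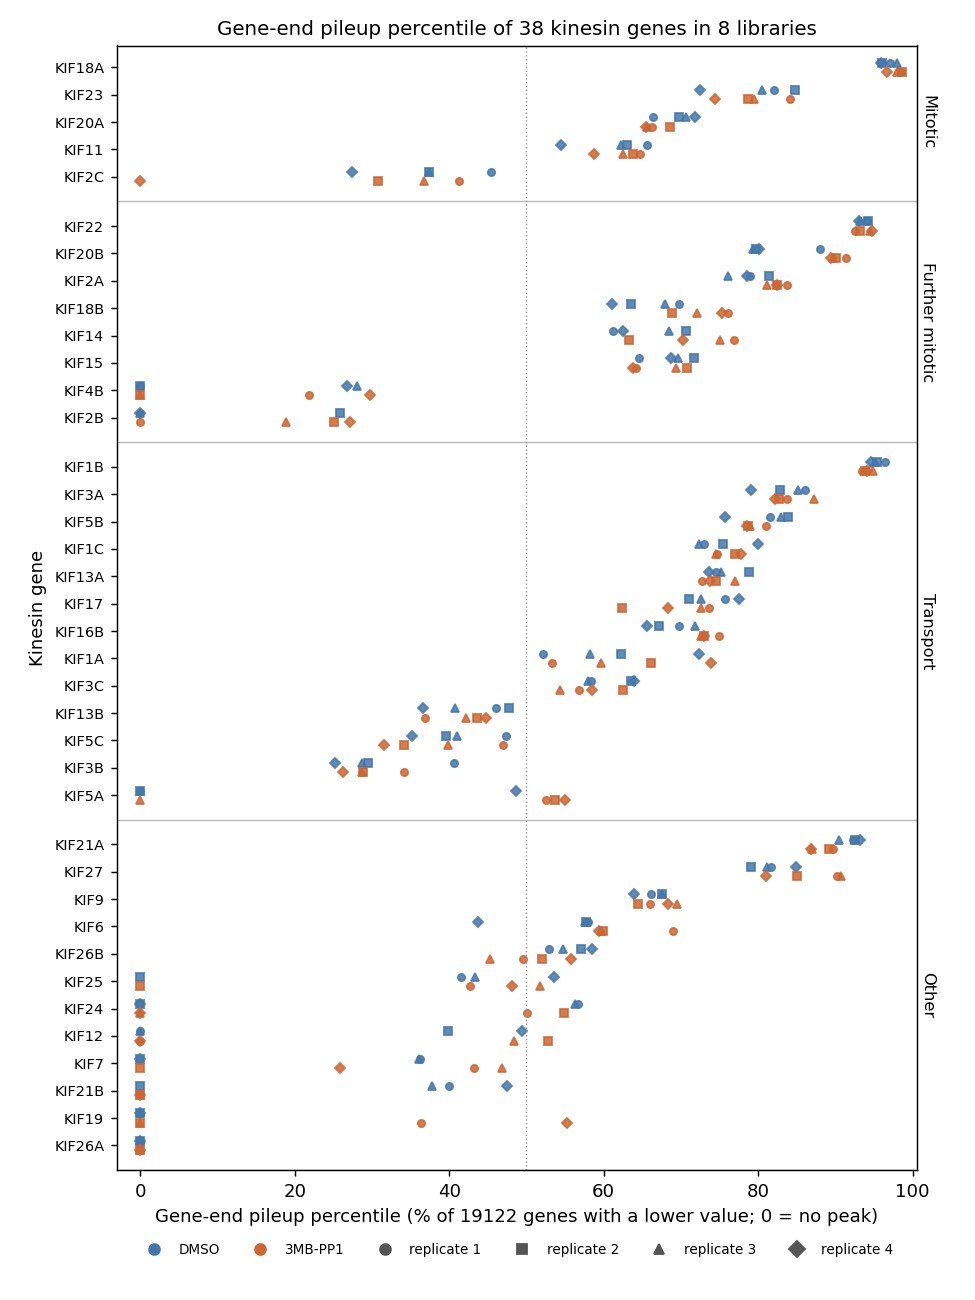
Gene-end pileup percentile (x axis, percent of 19122 genes with a lower value) of the 38 kinesin genes (y axis), 1 point per library, coloured by treatment and shaped by replicate, with the dotted line at 50. KIF18A stands highest among the mitotic kinesins and KIF2C lowest, and points at 0 are libraries without a gene-end peak.

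KIF11, the kinesin-5 that pushes spindle poles apart and the target of STLC, lies on chromosome 10 from 92593130 to 92655395 on the plus strand. A peak covered its start in all 8 lists. Its percentile was 65.6, 63.0, 62.3 and 54.5 in DMSO replicates 1 to 4, and 64.7, 63.8, 62.5 and 58.7 in 3MB-PP1 replicates 1 to 4. Replicate 4 was lowest in both groups, and the groups overlapped fully. Means were 61.3 ± 4.79 and 62.4 ± 2.63 (SD, n = 4 each), a difference of 1.07 points (exact two-sided permutation p = 0.714). Against all peaks of its own list, rather than against genes, the KIF11 peak stood at percentile 90.6 to 96.1.

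The other 4 mitotic kinesins ranged from among the highest genes to below the middle of all genes. KIF18A, the kinesin-8 that damps chromosome movements at alignment, read 97.1, 96.1, 98.0 and 96.0 in DMSO and 98.5, 98.6, 97.9 and 96.7 in 3MB-PP1. It had the highest mean of all kinesins, 97.3, and its start lies 232 bp from that of METTL15 on the other strand, so its peak cannot be given to one gene. KIF23, the motor of centralspindlin, read 82.1, 84.7, 80.5 and 72.4 against 84.1, 78.6, 79.4 and 74.4. KIF20A, which carries the chromosomal passenger complex to the midzone, read 66.4, 69.8, 70.6 and 71.8 against 66.3, 68.5, 65.6 and 65.5. Its start lies 482 bp from that of BRD8 on the other strand, so the limit given for KIF18A holds here too. The KIF20A values were lower with 3MB-PP1 in all 4 same-numbered comparisons, but the groups overlapped (exact two-sided permutation p = 0.0571).

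KIF2C read 45.4, 37.4, 37.4 and 27.5 in DMSO and 41.2, 30.8, 36.7 and 0 in 3MB-PP1, where the 0 is the list without a peak. It was the only mitotic kinesin below the middle of all genes in every list. Its peaks were also the weakest of the 5, with −log10 q from 1.48 to 7.45. In no mitotic kinesin were the 2 treatments separated in percentile.

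**Figure D2:**
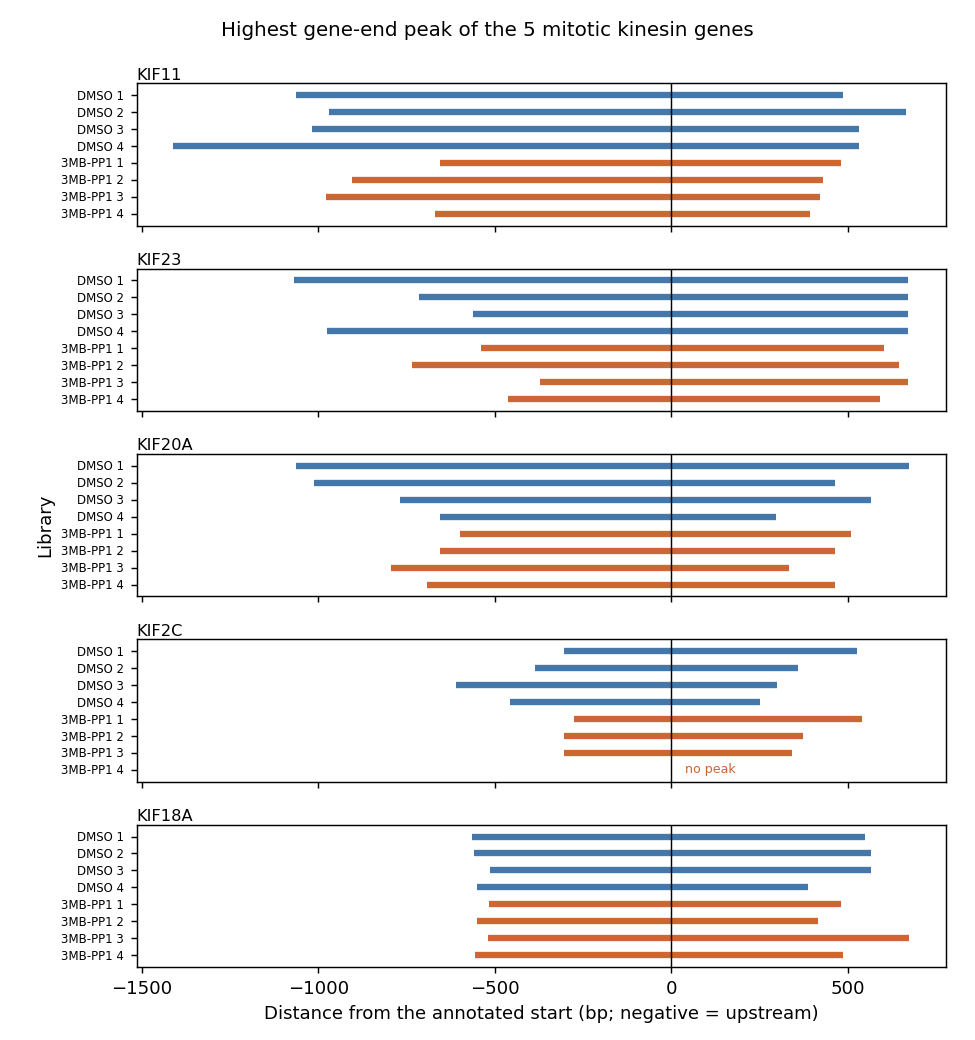
Extent of the highest gene-end peak (x axis, bp from the annotated start, negative upstream) of each mitotic kinesin gene in the 8 libraries (y axis), blue for DMSO and orange for 3MB-PP1. All drawn peaks cross the start, KIF2C has none in 3MB-PP1 replicate 4, and the KIF11 peaks are 1549 to 1943 bp wide in DMSO and 1064 to 1400 bp wide in 3MB-PP1.

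The highest gene-end peak of each of the 5 genes crossed the annotated start and covered the printed promoter in every list that had one. The width of the highest gene-end peak was examined after the data had been seen. For KIF11 it was 1550, 1637, 1549 and 1943 bp in DMSO and 1139, 1335, 1400 and 1064 bp in 3MB-PP1, so every 3MB-PP1 peak was narrower. The mean difference was -435 bp (p = 0.0286 by exact two-sided permutation, and 0.21 after adjustment over 11665 genes). It was -280 bp within odd and -590 bp within even replicate numbers. KIF18A, with 1065 ± 85.8 against 1050 ± 102 bp (SD, n = 4 each), showed no such separation.

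Narrower peaks with 3MB-PP1 were also seen across all genes. The groups were separated toward narrower peaks at 6 of 27 kinesin genes with a peak in every list (22.2%), against 13.5% of all genes. Separation toward wider peaks occurred at 0 of 27, against 0.163% of all genes. The 6 were KIF11, KIF1B, KIF26B, KIF5B, KIF3C and KIF9. The median difference was -181 bp over the 27 kinesins and -168 bp over all genes.

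Further mitotic kinesins spread from KIF22 at the top to KIF2B at the bottom. KIF22, the chromokinesin that pushes chromosome arms outward, had a mean percentile of 93.7 over the 8 lists, but its highest peak lay at its transcript end, 739 bp from the start of MAZ. KIF2A, a depolymerase of spindle poles, read 78.8 ± 2.20 in DMSO and 82.5 ± 1.03 in 3MB-PP1 (SD, n = 4 each), and the groups overlapped. KIF4B and KIF2B stood at means of 13.3 and 12.1. KIF4B is a close copy of KIF4A, and how reads shared by such copies were placed is not given in the sources used here.

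KIF20B was the only mitotic-role kinesin whose treatments were separated in percentile. It read 88.0, 79.7, 79.4 and 80.1 in DMSO and 91.3, 90.1, 89.8 and 89.5 in 3MB-PP1. Every 3MB-PP1 library stood above every DMSO library, and DMSO replicate 1 was closest to them. Means were 81.8 ± 4.15 and 90.2 ± 0.819 (SD, n = 4 each), a difference of 8.39 points (p = 0.0286 by exact two-sided permutation, and 0.361 after adjustment over 17593 genes). The difference was 6.85 points in odd and 9.93 points in even replicate numbers. Ranked by −log10 p or by fold enrichment in place of pileup, it was 5.37 and 3.19 points and the groups overlapped.

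Among all 37 kinesin genes tested, the groups were separated toward higher percentiles with 3MB-PP1 at 3 (8.11%), against 3.04% of all genes, and toward lower ones at 1 (2.70%), against 4.87%. With 4 libraries against 4 the smallest possible p is 0.0286, and no gene passed adjustment over the whole table, where the smallest adjusted p was 0.361. An unadjusted p below 0.05 was reached by 1392 of 17593 genes. Limma called 0 kinesin genes, against 0.256% of all genes. Of the 37, 20 stood higher and 17 lower with 3MB-PP1, with a median difference of 0.69 points against -0.14 over all genes.

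KIF16B, a kinesin-3 that moves early endosomes, read 69.7, 67.1, 71.8 and 65.7 in DMSO and 74.9, 73.0, 72.6 and 73.1 in 3MB-PP1. The gap between the highest DMSO and the lowest 3MB-PP1 library was small, and the mean difference was 4.80 points (3.01 in odd and 6.60 in even numbers). KIF6, a motor of motile cilia, read 57.9, 57.7, 57.6 and 43.7 in DMSO and 69.0, 59.9, 59.6 and 59.4 in 3MB-PP1. Its mean difference of 7.77 points (6.60 in odd and 8.94 in even numbers) fell to 4.27 points without DMSO replicate 4, which stood far below the other 3. KIF21A, which restrains microtubule growth at the cell cortex, went the other way, from 92.3, 92.5, 90.4 and 93.2 to 89.6, 89.1, 87.0 and 86.9. That difference was -3.97 points, with -3.06 in odd and -4.87 in even numbers. For all 3, p was 0.0286 by exact two-sided permutation and 0.361 after adjustment. Ranked by fold enrichment the KIF21A difference turned to 3.49 points and none of these genes was separated.

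**Figure D3:**
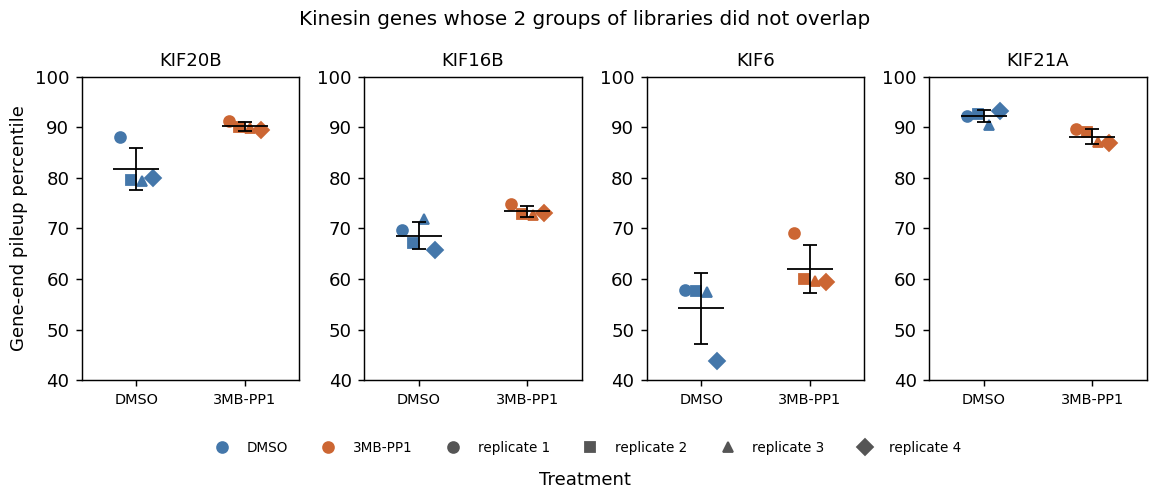
Gene-end pileup percentile (y axis, from 40 to 100) by treatment (x axis) for the 4 kinesin genes whose groups did not overlap, 1 point per library, with the mean and SD (n = 4) in black. KIF20B, KIF16B and KIF6 are higher and KIF21A lower with 3MB-PP1, and in KIF6 DMSO replicate 4 lies at 43.7.

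Transport kinesins covered almost the whole range. KIF1B, a kinesin-3 that carries mitochondria and synaptic vesicle precursors, was highest with 95.4 ± 0.769 in DMSO and 94.1 ± 0.591 in 3MB-PP1 (SD, n = 4 each). KIF3A, the shared subunit of heterotrimeric kinesin-2, read 83.3 ± 3.11 and 84.0 ± 2.27, and KIF5B read 81.0 ± 3.68 and 79.3 ± 1.14. At the low end, KIF5C read 40.8 ± 5.02 and 38.1 ± 6.82, and KIF3B, the usual partner of KIF3A, read 31.0 ± 6.68 and 29.5 ± 3.30. KIF5A, a neuronal heavy chain, was at 0 in 4 libraries, at 48.6 in DMSO replicate 4 and at 52.5, 53.7 and 55.0 in 3MB-PP1 replicates 1, 2 and 4. KIF1B stood above KIF3A without overlap in both groups. The libraries of KIF3A and KIF5B overlapped in DMSO (79.1 to 86.1 against 75.7 to 83.9) but not in 3MB-PP1 (82.2 to 87.2 against 78.6 to 81.0). Those of KIF5C and KIF3B overlapped in both groups (35.2 to 47.4 against 25.3 to 40.7 in DMSO, 31.6 to 47.0 against 26.3 to 34.1 in 3MB-PP1).

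Some of these peaks were not at the start of the kinesin. The highest peaks of KIF17, a homodimeric kinesin-2, lay at its transcript end in all 8 lists, 261 bp from an end of DDOST, and its own start had a peak in 1 list. KIF1A, the axonal vesicle motor, also had peaks at its transcript end in 8 lists and within 1 kb of its outermost start in 0. Its innermost listed start, with the promoter at chr2:240820220-240820469, lies beyond that window, in the gene body. A body region of KIF1A was called in all 8 lists, and its place relative to that start was not examined. KIF24 had them at its transcript end in 4 lists, 143 bp from UBAP1, and at the other end of its span in 0. That other end, at 34333671, is not its listed start. The listed promoter, chr9:34329269-34329518, lies inside the span and outside the end windows, so a peak there counts as body. A body region of KIF24 was called in all 8 lists, and its place relative to that promoter was not examined. The listed promoter of KIF7 also lies outside its end windows. In all, 10 kinesin genes shared an end window with the end of another protein-coding gene. The starts of KIF15 and KIAA1143, of KIF9 and KLHL18 and of KIF1C and INCA1 were such pairs.

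The contrast between mitotic and transport kinesins depended on which peak value was ranked. By pileup, the median percentile was 69.7 ± 2.34 for mitotic and 70.2 ± 2.35 for transport kinesins in DMSO, and 66.5 ± 1.42 and 71.1 ± 3.36 in 3MB-PP1 (SD over 4 libraries each). The difference, mitotic minus transport, was -3.33, 2.67, -1.21 and -0.455 points in DMSO and -6.37, 2.46, -7.03 and -7.57 points in 3MB-PP1. Replicate 2 of each group was the positive one, and the groups overlapped.

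By fold enrichment (the authors' ratio of pileup to local background) the mitotic kinesins stood higher in every library. The difference was 14.9, 25.8, 29.1 and 28.2 points in DMSO and 23.1, 36.1, 17.3 and 25.9 points in 3MB-PP1. Ranked by −log10 p it lay between the 2, with 12.5 ± 3.39 points in DMSO and 14.1 ± 4.21 in 3MB-PP1 (SD, n = 4 each). The treatments overlapped under each of the 3 rankings. Members were chosen and grouped by known function and are not replicates, so no p is given.

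**Figure D4:**
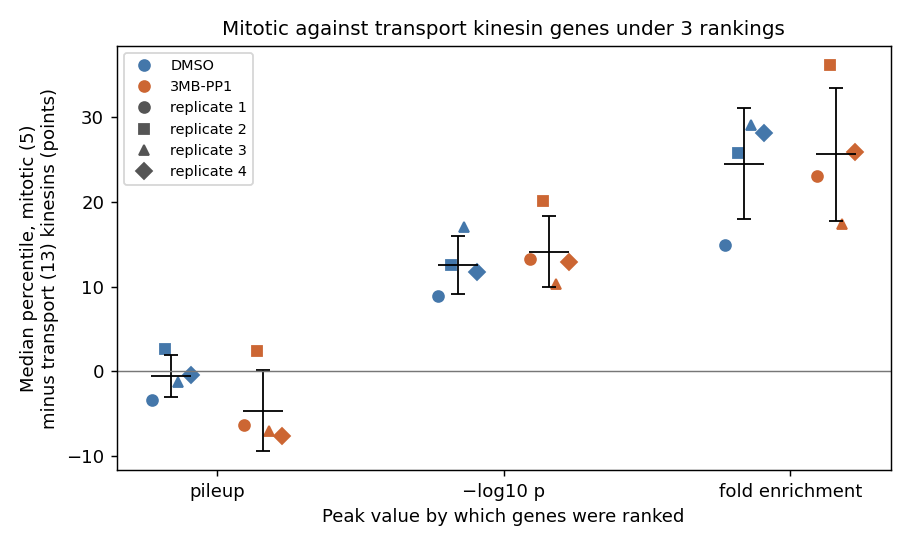
Median gene-end percentile of the 5 mitotic minus that of the 13 transport kinesins (y axis, percentile points) with genes ranked by pileup, −log10 p or fold enrichment (x axis), 1 point per library, with the mean and SD (n = 4) in black. By pileup the points lie from -7.57 to 2.67, and by fold enrichment from 14.9 to 36.1 in all 8 libraries.

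The shift between the 2 rankings was shared by most mitotic kinesins and mixed among transport kinesins. Over the 8 lists, all 5 mitotic and 7 of 8 further mitotic kinesins had a higher mean percentile by fold enrichment than by pileup, against 6 of 13 transport and 2 of 12 other kinesins. KIF14, needed for cytokinesis, moved from 68.5 to 95.3, and KIF23 moved from 79.5 to 92.8. KIF11 moved least after KIF18A among the 5, from 61.9 to 67.9. Among transport kinesins, KIF1C went from 75.6 to 46.7 and KIF1A from 62.2 to 23.4, while KIF3A rose from 83.6 to 97.1. The KIF1A peaks were those at the transcript end, and the KIF1C promoter had a GC content of 75.7% against 56.7% for KIF11. KIF2A, with the same promoter GC content as KIF1C, moved the other way, from 80.6 to 87.8. The part of GC content and of peak position in this contrast was not tested.

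Covered length at gene ends, the number of window bases inside any peak, was the next measure. Of 37 kinesin genes, 28 had a smaller mean with 3MB-PP1, and the median difference was -106 bp against -84.5 bp over all genes. The groups were separated toward shorter coverage at 2 (5.41%), against 7.84% of all genes, and toward longer coverage at 0, against 0.608%. At KIF5B, coverage was 1159, 1170, 1178 and 1181 bp in DMSO and 1115, 1067, 1071 and 1025 bp in 3MB-PP1, a difference of -102.5 bp with little spread within groups. At KIF26B it was 2001, 2355, 2182 and 2001 bp against 1441, 1903, 1617 and 1133 bp, a difference of -611 bp. For both, p was 0.0286 by exact two-sided permutation and 0.338 after adjustment. Expressed as a share of all bases its list covered, the KIF5B difference was 0.340 bp per Mb in the other direction and neither gene was separated.

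Gene bodies, taken as the part between the 2 end windows, showed separation at 2 of 35 kinesin genes. KIF26B, a kinesin-like protein linked to noncanonical Wnt signalling, is the longest member, with 552448 bp of body on chromosome 1. Peaks covered 34761, 38676, 56974 and 39417 bp of it in DMSO and 23497, 23804, 29909 and 26767 bp in 3MB-PP1. All DMSO libraries were above all 3MB-PP1 libraries, with DMSO replicate 3 highest. The covered share was 7.69 ± 1.79% against 4.71 ± 0.543% (SD, n = 4 each), from a mean of 94.5 and 80.75 peaks of 447 and 324 bp. The difference of -16463 bp (p = 0.0286 by exact two-sided permutation, and 0.503 after adjustment over 16050 genes) was -19164.5 bp in odd and -13761 bp in even numbers. Chromosome 1, which holds KIF26B, took 7.49 ± 0.326% of all covered bases in DMSO and 6.79 ± 0.222% in 3MB-PP1 (SD, n = 4 each). Relative to all covered bases of its list, KIF26B fell from 433 ± 47.7 to 303 ± 32.9 bp per Mb (SD, n = 4 each), again without overlap. Counting only peaks with −log10 q of at least 5, the difference was 42.5 bp and the groups overlapped.

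KIF15, the kinesin-12 that can keep a spindle bipolar beside KIF11, went the other way. Peaks covered 1290, 1141, 1370 and 1565 bp of its body in DMSO and 2645, 1640, 2201 and 1864 bp in 3MB-PP1, and the groups did not overlap. It had 1 to 3 body peaks in DMSO and 3 to 7 in 3MB-PP1. The difference of 746 bp (p = 0.0286 by exact two-sided permutation, and 0.503 after adjustment) was 1093 bp in odd and 399 bp in even numbers. Separation was lost when lists were reduced to equal length, with 489 bp, and the difference was -665 bp when only peaks with −log10 q of at least 5 were counted. One separated kinesin in each direction (2.86% of 35) compares with 1.49% of all genes for longer and 4.19% for shorter body coverage.

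KIF11 itself had 987, 2117, 519 and 2627 bp of its body covered in DMSO and 573, 2286, 2943 and 1576 bp in 3MB-PP1. The groups overlapped, with the lowest and the second highest value both in DMSO. The bodies of KIF20A, KIF2B and KIF4B, which are short at 6612, 267 and 2387 bp, held no peak in any list.

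**Figure D5:**
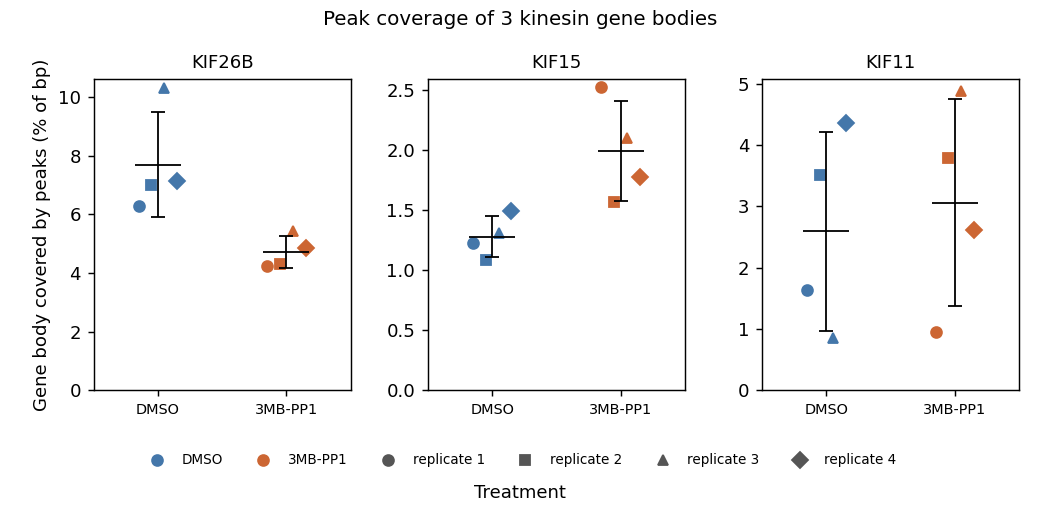
Share of the gene body covered by peaks (y axis, percent of bp, each panel from 0 with its own scale) by treatment (x axis) for KIF26B, KIF15 and KIF11, 1 point per library, with the mean and SD (n = 4) in black. KIF26B is lower and KIF15 higher in all 3MB-PP1 libraries, and the KIF11 groups overlap.

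Merging the 8 lists gave 1012 regions in or within 1 kb of kinesin genes. A single list held 530 of them (52.4%), and 59 (5.83%) were present in all 8, against 7.69% of regions at all protein-coding genes. Of the 59, 30 were among the 62 regions at gene ends and 29 among the 950 in gene bodies. KIF26B alone accounted for 249 regions and KIF20A for 1.

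Of the 1012 kinesin regions, 4 (0.395%) were called in all 3MB-PP1 lists and no DMSO list, against 0.141% of all gene regions, and 0 showed the opposite pattern, against 0.111%. One lay inside KIF11, at chr10:92640407-92640979, 47277 bp after its start. The others were before the start of KIF2C, inside KIF13A and inside KIF16B. Regions are merged peaks, and in KIF11 no base was called in all 3MB-PP1 lists. There the peak of replicate 1 ended at 92640640, and those of replicates 3 and 4 began at 92640709 and 92640715. In KIF13A the peaks of 3MB-PP1 replicates 1 and 2 shared no base either. The KIF2C region came within 980 bp of the start only through the peak of 3MB-PP1 replicate 1. In 3MB-PP1 replicate 4 its peak ended 212 bp short of the 1 kb window, so that list still had no gene-end peak. All 4 were weak, with −log10 q of at most 2.33, and a missing call is not a missing signal.

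The 15 partner genes were mostly accessible, with a gene-end peak in all 8 lists at 11 and in none at KIFAP3, the adaptor of kinesin-2. PRC1, which bundles midzone microtubules, read 95.8 ± 1.27 in DMSO and 95.0 ± 0.873 in 3MB-PP1 (SD, n = 4 each). TPX2, the spindle assembly factor, read 88.7 ± 3.06 and 94.1 ± 3.86, and the kinetochore kinesin CENPE read 61.7 ± 4.62 and 61.0 ± 8.01. None of the 14 tested was separated in percentile, against 3.04% of all genes for higher and 4.87% for lower. KIFBP, 1 of 14, was separated toward shorter end coverage, against 7.84% of all genes. In body coverage 1 of 15 was separated in each direction, against 1.49% for longer and 4.19% for shorter. The highest gene-end peak was narrower without overlap at 3 of 11, against 13.5%.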

How the data were processed

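Peak lists of 8 ATAC-seq libraries (4 DMSO, 4 3MB-PP1) were used, with groups and replicate numbers from the titles. The authors had called peaks per library. The submitters' processing notes name MACS2, DESeq2 and the build hg38 without their roles, and aligner, read filters, Tn5 shift, control and scaling are not given in the sources used here. How the lists were made could change peak number, width and height. Pileup, as deposited, is a coverage signal, and its scaling is not given in the sources used here. Each peak also carries a deposited −log10 p and −log10 q of its own list (largest q 0.1), a deposited fold enrichment (a ratio to background) and a deposited length in bp. All were set by the authors and served for ranking and filtering inside 1 list at a time.

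Genes came from the RefSeq table of GRCh38.p14 and promoters from the RefSeq promoter table, which gave a start and strand for 32 of 38 kinesins and 15100 genes in all. Per gene and library, the pileup percentile, the covered length at gene ends (1 kb either side) and the covered length of the body were computed. Group means were compared by the exact two-sided permutation test over 70 assignments, with Benjamini-Hochberg adjustment over all genes with a peak. The smallest p is 0.0286, and an adjusted p of 0.05 would need 57.1% of genes to reach it. A gene was called separated where the groups did not overlap.

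Members, gene lists and tests were chosen with earlier results of these data known. 1 marker gene of another cell type is not reported here. Named were the 5 mitotic kinesins, separated members, members with a peak in fewer than 8 lists, and the highest and lowest members and transport kinesins. Named after their values were seen were KIF14, KIF1C, KIF1A, KIF17, KIF22 and KIF2A among kinesins, and PRC1, TPX2 and CENPE among partners. Peak width was added as a measure after the data were seen. Alternatives varied windows, peak filters, list length, overlap, ranking, the gene end used (start only), libraries, the replicate block and the test (limma). Added later were shares of covered length, windows round every listed start and limma with the replicate block. No 2 lists shared more than 0.0336% of identical peaks. R 4.3.3 with limma 3.58.1 and Python 3.11.15 with scipy 1.17.1, pandas 2.3.3, numpy 2.4.6 and matplotlib 3.10.9 were used. Interval functions were checked against bedtools 2.31.1 on 1 of the peak lists, and the separation and permutation tests on simulated data.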

Additional observations from a re-analysis of the deposited data

Results flagged for a closer look

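Of 92 groups of 4 libraries examined, 7 (7.61%) held 1 library far from the other 3 by Dixon's criterion, which chance gives in about 1 of 20. KIF6 gave 2 of them, with DMSO replicate 4 at percentile 43.7 (the next library at 57.6) and 3MB-PP1 replicate 1 at 69.0 (next 59.9). KIF20B was high in DMSO replicate 1, at 88.0 against 80.1 for the next library, which is the DMSO library nearest to the 3MB-PP1 group. KIF5B in 3MB-PP1 replicate 1 stood at 81.0 against 79.0. For KIF5A and KIF2B the distance came from presence or absence of a peak. KIF5A had a peak in DMSO replicate 4 alone of its group, at 48.6, and was at 0 in 3MB-PP1 replicate 3 alone, with the next library at 52.5. KIF2B had a peak in DMSO replicate 2 alone of its group, at 25.8.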

How the results depend on the processing

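By pileup, 4 kinesin genes were separated in percentile. Ranked by −log10 p, 2 were separated (KIF6 and KIF1C, 5.41% against 5.83% of all genes), and only KIF6 was among those 4. Ranked by fold enrichment, 2 were separated (KIF1C and KIF3C, 5.41% against 4.68%), and none of those 4 was. Leaving out 1 library gave 4 to 7 (10.8% to 18.9%, against 9.72% to 14.9% of all genes). A gene separated over all 8 libraries stays separated without 1 of them, so leave-one-out counts could not fall. In end coverage the main count was 2. Windows of 100 bp gave 0 (against 0.917% of all genes) and 2.5 kb gave 4 (10.5%, against 8.28%). As a share of covered length it was 1 (2.70%, against 2.64%). Without 1 library it was 2 to 7 (5.41% to 18.9%, against 10.4% to 17.6%). In body coverage the main count was also 2. Lists of equal length gave 5 (14.7%, against 9.14% of all genes) and windows of 100 bp gave 1 (2.63%, against 6.16%). As a share it was 4 (11.4%, against 5.37%). Without 1 library it was 2 to 4 (5.71% to 12.1%, against 7.24% to 13.3%). Odd numbers alone gave 17, 17 and 16 kinesin genes (45.9%, 45.9% and 47.1% of those tested, against 46.1%, 43.4% and 40.7% of all genes) and even numbers 14, 14 and 13 (37.8%, 37.8% and 40.6%, against 37.0%, 37.5% and 35.2%), with 2 libraries a group. By limma the 3 counts were 0 (against 0.256%, 0.205% and 0% of all genes), with the smallest adjusted p at KIF20B in percentile (0.0988). Gene-end calls rose from 0 to 1 (KIF21B, 2.63% against 0.92% of all genes) with 3 of 4 lists against 0 of 4. They were also 1 in odd numbers alone (KIF21B, 2.63% against 3.31%). Without 1 library they were 0 to 1, with the 1 (2.63% against 0.34%) when DMSO replicate 2 was left out. Mitotic minus transport was -1.66 to 0.335 points in DMSO and -6.99 to -3.65 in 3MB-PP1 without 1 library. By −log10 p it was 12.5 and 14.1 points, by fold enrichment 24.5 and 25.6, and in 3MB-PP1 33.3 ± 45.1 (SD, n = 4) with −log10 q of at least 5 and 0.741 with both mitotic lists together.

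Differences that turned direction were KIF26B body (42.5 bp) and KIF15 body (-665 bp) at −log10 q of at least 5, KIF26B ends with 50% overlap (369.75 bp), KIF21A by fold enrichment (3.49 points) and KIF5B ends as a share (0.340 bp per Mb). The cause was not tested. Of 171 settings for named genes, 137 kept direction and call, 29 kept direction only and 5 turned. These genes were named because their groups did not overlap over all libraries. Leaving out a library, taking odd or even numbers alone and using the replicate block could therefore change neither direction nor call. Such settings are among the 137 and do not test these genes, so 137 of 171 is not a measure of stability. Same-numbered libraries correlated by 0.0291 to 0.120 in their deviations and other pairs by -0.126 to 0.0679. All 4 were positive, but 2 were below 0.1. DMSO replicate 2 correlated better with another number than with its own, and replicate 3 only slightly so (0.0679 against 0.0661). The numbers were therefore not taken to pair the libraries. The chromosome X share of peaks, however, ranked the numbers alike in both groups. It was 0.933%, 0.684%, 0.868% and 0.633% in DMSO and 0.908%, 0.694%, 0.872% and 0.595% in 3MB-PP1, for replicates 1 to 4. Whether same-numbered libraries shared a batch was not tested. With the number as a replicate block, 15, 9 and 7 kinesin genes (40.5%, 24.3% and 20.0% of those tested, against 23.1%, 23.2% and 20.1% of all genes) moved one way in all 4 pairs, where the smallest p is 0.125. Limma with the block called 0, 0 and 0 kinesin genes, and 0% of all genes in each measure. Depth is unknown, and a missing peak is not a missing signal.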

Other observations

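KIF4A, the chromokinesin of chromosome X that the autosomal rule leaves out, had a gene-end peak in all 8 lists. Placed among the autosomal genes by pileup, it stood at percentile 38.8, 34.9, 34.7 and 33.4 in DMSO replicates 1 to 4 and at 34.1, 24.5, 37.3 and 31.6 in 3MB-PP1 replicates 1 to 4, and the groups overlapped. Its autosomal copy KIF4B had a peak in 4 lists, with a highest percentile of 29.8.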
